A study of Mus musculus with 14 samples.

Results

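The 8 genes described here encode the machinery by which a cell loads peptides onto MHC class II molecules. They are H2-Aa, H2-Ab1 and H2-Eb1, chains of the class II molecules themselves, Cd74, the invariant chain, H2-DMa, H2-DMb1 and H2-DMb2, subunits of the peptide editor H2-DM, and Ciita, the coactivator of class II transcription. They were chosen by name from the 55414 genes of the deposited table. The choice was made with values of the ferroptotic and the untreated supernatant known, so for every comparison that holds either of these groups the members' values are a description. The number past the threshold is printed there beside the share of all genes, with no p-value, and nothing is read from it. All 8 passed the filter on low counts, as did 12851 genes in all.

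RNA came from primary bone marrow-derived macrophages (pBMDMs) of wildtype C57BL/6N mice, kept for 24 h in filtered culture supernatants. These came from Pfa1, a line of mouse embryonic fibroblasts in which 4-hydroxytamoxifen (4OHT) activates a Cre recombinase that deletes Gpx4, and the fibroblasts then die by ferroptosis, an iron-dependent death by lipid peroxidation. The groups were supernatant of untreated Pfa1 cells (ctrl, n = 3), of cells given 4OHT, labelled Tam (4OHT, n = 3), of cells given 4OHT and Ferrostatin-1, an inhibitor of ferroptosis, labelled Tam Fer1 (4OHT+Fer1, n = 3), of cells given Ferrostatin-1 alone (Fer1, n = 3), and medium that had not been on fibroblasts, labelled medium ctrl (medium, replicates 1 and 2, n = 2). All pBMDMs were grown with M-CSF, and the labels give neither the age nor the sex of the mice. The supernatants come from 1 fibroblast line, and any 4OHT or Ferrostatin-1 left in them would have reached the macrophages too.

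MHC class II molecules are pairs of an alpha and a beta chain that carry peptides from endosomes to the cell surface, where CD4+ T cells read them. The invariant chain fills the groove during assembly and is then cut by endosomal proteases such as cathepsin S, after which H2-DM exchanges its last fragment for peptides. Class II genes share promoter elements, the X and Y boxes, bound by RFX, CREB and NF-Y, and these factors act through CIITA, whose own transcription is set by interferon-gamma and IRF1 in macrophages.

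The promoter letters below set class II genes side by side at the elements that CIITA works through, and only some of them held both sets of letters. RefSeq promoter windows (GRCm38.p6, from 250 bases before to 50 bases after the annotated start) were at hand for 5 of the 8 members, H2-Aa, H2-Eb1, H2-DMa, H2-DMb1 and H2-DMb2. Capitals mark the letters AACNNNTGA of the X box and GATTGG of the Y box, chosen after these promoters had been read. H2-Ob, from the same locus, is shown beside them as the other class II gene with both sets of letters. H2-Oa and H2-Eb2 held the Y letters only and are not shown. The windows are chr17:34305770-34305820 for H2-Eb1, chr17:34153091-34153142 for H2-DMb1, chr17:34145120-34145171 for H2-DMb2 and chr17:34238812-34238860 for H2-Ob, all on the plus strand, and chr17:34287859-34287921 on the minus strand for H2-Aa. The windows of H2-DMb1 and H2-DMb2 lie inside their GENCODE M21 gene models, which begin further upstream, and those of H2-Eb1 and H2-Aa lie upstream of theirs.
H2-Eb1: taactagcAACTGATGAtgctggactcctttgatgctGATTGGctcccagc
H2-DMb1: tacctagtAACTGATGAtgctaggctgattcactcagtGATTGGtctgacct
H2-DMb2: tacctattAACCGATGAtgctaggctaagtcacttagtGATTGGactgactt
H2-Ob: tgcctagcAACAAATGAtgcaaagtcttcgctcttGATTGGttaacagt
H2-Aa: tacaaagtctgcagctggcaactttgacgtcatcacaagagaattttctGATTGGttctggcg

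In H2-Eb1, H2-DMb1, H2-DMb2 and H2-Ob the X letters stood ahead of the Y letters, with 20, 21, 21 and 18 bases between them. The Y letters began 60 bases before the annotated start in H2-Eb1, 62 in H2-DMb1, 91 in H2-DMb2, 58 in H2-Ob and 49 in H2-Aa. H2-Aa held the Y letters only. The search was for these exact letters, so an X or Y box spelled otherwise was not counted in any promoter. H2-DMa has 2 annotated starts, of which 1 held the Y letters, 199 bases upstream, and neither held the X letters. Over 32851 mouse promoter windows, 11.9% held the X letters and 16.1% the Y letters on either strand. X followed by Y at a distance of 10 to 40 bases was held by 50 windows (0.152%). On the strand of the gene, on which the positions above are given, the shares were 6.12%, 8.71% and 0.0913%. The letters were chosen from the promoters shown, so their match was fixed beforehand and nothing is read from these shares. The H2-DMb1 and H2-DMb2 windows share 45 of 52 bases. In 4 of the 14 libraries reads were divided between these neighbouring paralogs, as given below.

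Read counts per library ran from 7823051 to 11052352, so that 3 counts, taken as the smallest amount told from none, stood for 0.271 to 0.383 CPM, counts scaled to the library size. Libraries were made by QuantSeq from the 3′ end of transcripts, and levels are compared here between groups, not between genes. Macrophage markers (9 genes) summed to between 19277 and 44231 CPM. Of the other cell types that marrow cultures can hold, 9 dendritic cell markers summed to 9.65 to 29.7 CPM, 6 B cell markers to 2.50 to 4.96 CPM and 7 T or NK cell markers to 0.496 to 3.45 CPM. Neutrophil or progenitor markers summed to 34.3 and 47.3 CPM in medium and to 2.87 to 25.3 CPM elsewhere, and fibroblast markers to 15.1 to 116 CPM. Among the dendritic cell markers, Flt3 was at 0 in 13 of 14 libraries, Xcr1 too, and Itgax and Kmo made up most of the sum. Clec9a was at 0 in all ctrl and Fer1 libraries and at 2.29 and 0.890 CPM in medium, Dpp4 was at 1.14 and 1.78 CPM in medium and at 0 to 1.05 CPM elsewhere, and Itgax reached 22.3 CPM in replicate 3 of 4OHT. The part of these cell types in the results was not tested, and in bulk RNA fewer cells of a type cannot be told from less RNA per cell.

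**Figure D1:**
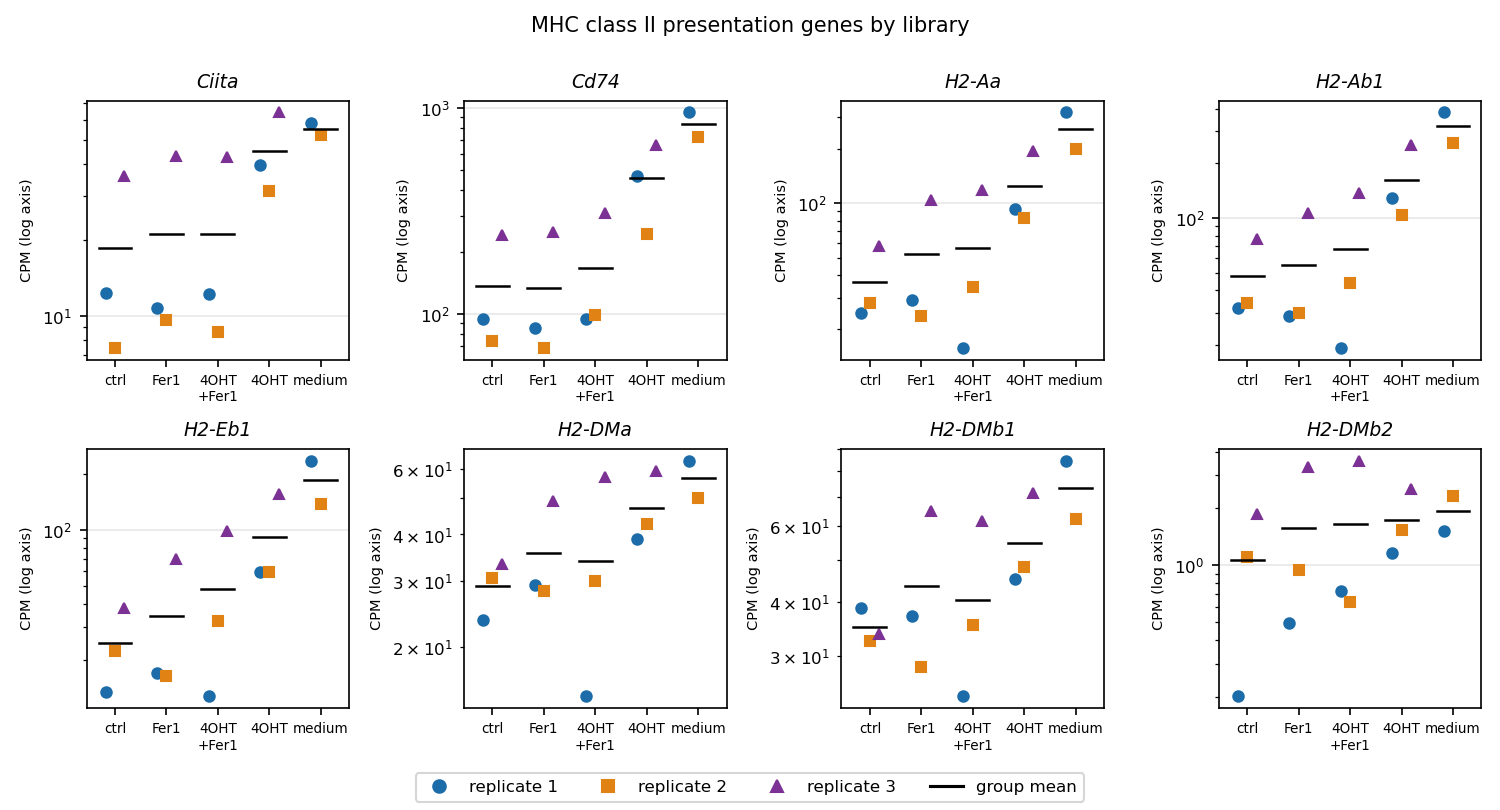
CPM (log axis, a scale of its own in each panel) of the 8 class II genes in each library, with symbols for replicates 1 to 3 and a black line at the group mean. For Cd74, H2-Aa and H2-Ab1 both medium libraries lie above the 12 others, and replicate 3 lies highest in the 3 groups of non-ferroptotic supernatant for 7 of 8 genes.

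Cd74 (ENSMUSG00000024610), whose product escorts class II chains and also serves as a surface receptor for the cytokine MIF, lies on chromosome 18 and overlaps Mir5107 on its strand. Its levels were 94.6, 74.0 and 243 CPM in ctrl replicates 1 to 3, 85.4, 68.5 and 249 CPM in Fer1, and 94.8, 98.6 and 307 CPM in 4OHT+Fer1. They were 466, 246 and 658 CPM in 4OHT, and 949 and 721 CPM in medium. Both medium libraries were above all others. Over replicates 1 and 2, which every group holds, the mean of 4OHT was 42.6% and that of ctrl 10.1% of the medium mean. Cd74 was higher in medium than in Fer1 by a log2 fold change of 3.35 (SE 0.23, adjusted p = 1.29e-05), and higher than in 4OHT+Fer1 by 3.01 (SE 0.23, adjusted p = 2.06e-05).

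The classical chains were likewise low in the non-ferroptotic supernatants and highest on average in medium. H2-Aa (17:34282744-34287823, minus strand), the alpha chain of I-A, had 24.6, 27.9 and 57.6 CPM in ctrl, 29.2, 23.8 and 105 CPM in Fer1, and 15.8, 34.3 and 119 CPM in 4OHT+Fer1, against 93.4, 83.0 and 195 CPM in 4OHT and 318 and 199 CPM in medium. H2-Ab1 (17:34257689-34269419, plus strand), its beta chain, had 32.1, 34.2 and 76.7 CPM in ctrl, 28.8, 29.8 and 107 CPM in Fer1, and 19.2, 44.1 and 138 CPM in 4OHT+Fer1, against 128, 104 and 253 CPM in 4OHT and 381 and 257 CPM in medium. For both genes the lowest medium library lay above the highest of the other 12, by a few CPM. Replicate 3 of the 4OHT group came closest to medium.

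H2-Eb1 (17:34305867-34316674, plus strand, opposite Gm20513), the beta chain of I-E, had 13.4, 22.4 and 37.8 CPM in ctrl, 17.1, 16.3 and 70.1 CPM in Fer1, and 12.8, 32.4 and 98.9 CPM in 4OHT+Fer1. In 4OHT it had 59.1, 59.2 and 155 CPM and in medium 236 and 138 CPM, so that replicate 3 of 4OHT lay between the medium libraries. Its partner H2-Ea, the I-E alpha chain, is not transcribed in mice of the b haplotype such as C57BL/6, and it was at 0 counts in all 14 libraries, which allows up to 0.271 to 0.383 CPM. Against Fer1, medium was higher by a log2 fold change of 3.16 (SE 0.36, adjusted p = 0.000217) for H2-Aa, 3.35 (SE 0.35, adjusted p = 0.000113) for H2-Ab1 and 3.37 (SE 0.39, adjusted p = 0.000235) for H2-Eb1. Against 4OHT+Fer1 the values were 3.13, 3.14 and 2.94, with adjusted p of 0.000251, 0.000172 and 0.000578.

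Ciita (ENSMUSG00000022504, 16:10480059-10528418, plus strand, opposite Dexi) was spread widely between replicate numbers. It had 12.3, 7.44 and 36.0 CPM in ctrl, 10.7, 9.60 and 43.1 CPM in Fer1, 12.1, 8.60 and 42.5 CPM in 4OHT+Fer1, 39.6, 31.3 and 64.2 CPM in 4OHT, and 58.4 and 52.3 CPM in medium. Replicate 3 of 4OHT was thus the highest of all libraries, and replicate 3 of the other supernatants lay near replicates 1 and 2 of 4OHT. Ciita was higher in medium than in Fer1 by a log2 fold change of 2.31 (SE 0.28, adjusted p = 0.00026) and than in 4OHT+Fer1 by 2.31 (SE 0.28, adjusted p = 0.000268).

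The subunits of H2-DM differed less between groups. H2-DMa (17:34119541-34139101, plus strand, opposite Brd2), the alpha subunit, had 23.6, 30.6 and 33.2 CPM in ctrl, 29.3, 28.3 and 49.2 CPM in Fer1, 14.7, 29.9 and 56.9 CPM in 4OHT+Fer1, 38.8, 42.8 and 59.4 CPM in 4OHT, and 63.1 and 50.1 CPM in medium. H2-DMb1 (17:34153072-34160230, plus strand), a beta subunit, had 38.8, 32.5 and 33.8 CPM in ctrl, 37.2, 28.4 and 64.9 CPM in Fer1, 24.3, 35.4 and 61.4 CPM in 4OHT+Fer1, 45.2, 48.1 and 71.2 CPM in 4OHT, and 84.7 and 62.0 CPM in medium. Replicate 3 of 4OHT and 4OHT+Fer1 reached into the medium range for H2-DMa, and replicate 3 of 4OHT and Fer1 for H2-DMb1, while the ctrl libraries stayed below it for both. Medium was higher than Fer1 by a log2 fold change of 1.04 (SE 0.28, adjusted p = 0.0339) for H2-DMb1 and of 0.98 (SE 0.29, adjusted p = 0.0516) for H2-DMa, which missed the threshold of 0.05. Against 4OHT+Fer1 both passed, at 1.14 each (adjusted p = 0.0221 and 0.0296).

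H2-DMb2 (17:34143307-34151555, plus strand), the second beta subunit, was near the detection limit, at 0.203 to 3.58 CPM over the 14 libraries, and its groups overlapped. In 4 libraries the deposited estimates of H2-DMb1 and H2-DMb2 were fractional, and in each of these their sum was a whole number, so reads were divided between them and the values of H2-DMb2 are uncertain. Medium was at 1.22 log2 above Fer1 (95% interval 0.03 to 2.41, adjusted p = 0.206) and 1.16 above 4OHT+Fer1 (95% interval -0.04 to 2.35, adjusted p = 0.224).

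**Figure D2:**
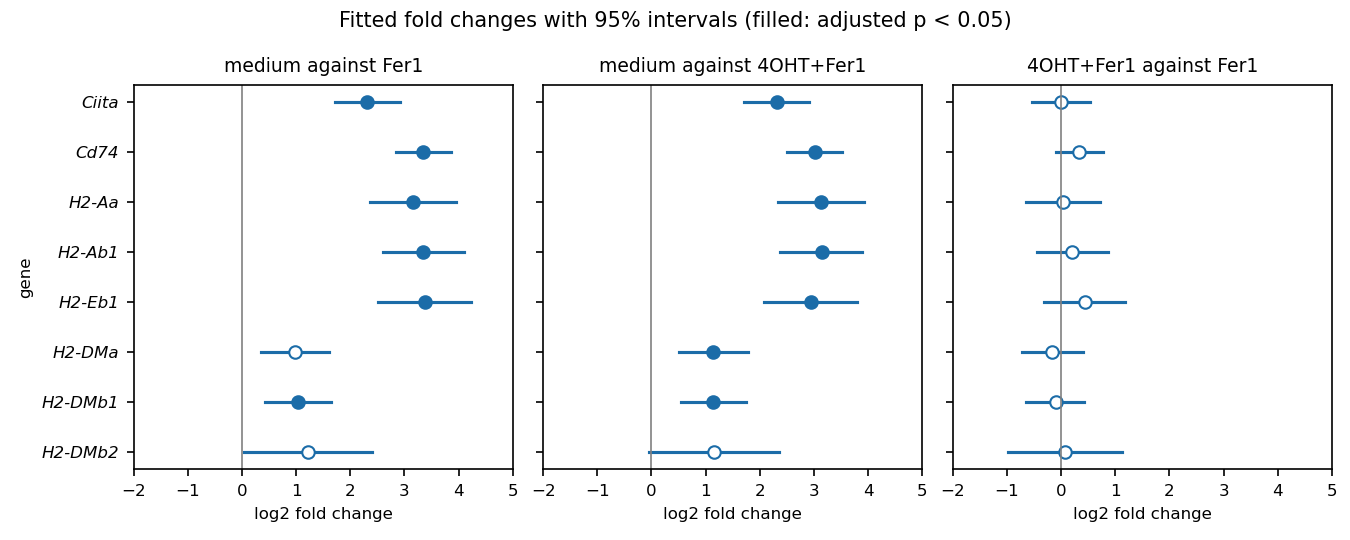
Log2 fold changes (x axis) of the 8 class II genes in 3 comparisons, with 95% intervals as lines, filled points where the adjusted p was under 0.05 and open points elsewhere. The 5 genes H2-Aa, H2-Ab1, H2-Eb1, Cd74 and Ciita stand at 2.31 to 3.37 in medium against Fer1, and all 8 intervals include 0 in 4OHT+Fer1 against Fer1.

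Medium was tested against the supernatant groups that did not enter the choice of genes, Fer1 and 4OHT+Fer1. Both came from fibroblasts given Ferrostatin-1, and 4OHT+Fer1 also from fibroblasts given 4OHT. In these 2 comparisons, drug left in the supernatants therefore cannot be told apart from contact of the medium with fibroblasts. The ctrl supernatant came from fibroblasts given neither drug. As a description, 7 of 8 members passed as higher in medium against ctrl, where 5.58% of all genes did. In Fer1 against ctrl 0 of 8 members passed, and 0 of 12851 genes did. The part of the drugs was not tested. In medium against Fer1, 6 of 8 members were called higher (quasi-likelihood F test of edgeR, p-values adjusted after Benjamini and Hochberg over all genes), where 4.91% of all genes tested were called higher. The median log2 fold change was 2.74 over the members. Against 4OHT+Fer1, 7 of 8 were called higher, where 4.88% of all genes were. Without the replicate number in the model the calls over all genes, in either direction, fell from 1294 to 523 and from 1295 to 572. Those of the members fell to 1 and 0. The medium group holds replicates 1 and 2 only, and replicate 3 had the highest summed level of the members in each supernatant group. With replicate 1, 2 or 3 left out the calls were 5, 4 and 7 in either comparison, the first pair with a single medium library that is assumed to vary like the other groups. Both comparisons use the same medium libraries. Of 3 neutrophil or progenitor markers tested, 1 was called higher in medium against Fer1, S100a8 by 1.57 (adjusted p = 0.00842). Of 9 macrophage markers tested, 1 was called higher in the same comparison. In the neutrophil or progenitor list, S100a9 was not called, at 16.8 and 24.6 CPM in medium and 5.16, 9.39 and 1.32 CPM in Fer1. Ly6g and Elane, of the same marker list, were at 0 counts in all libraries. The part of such cells in the class II values was not tested.

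Supernatant of fibroblasts given 4OHT under Ferrostatin-1 gave no call among the members. In 4OHT+Fer1 against Fer1, 0 of 8 members were called, where 0.0233% of all genes were, 0 had an unadjusted p under 0.05, and DESeq2 called 0. The log2 fold changes ran from -0.16 for H2-DMa to 0.44 for H2-Eb1. The 95% interval was -0.54 to 0.54 for Ciita, -0.10 to 0.77 for Cd74, -0.65 to 0.72 for H2-Aa, -0.44 to 0.86 for H2-Ab1 and -0.31 to 1.18 for H2-Eb1, so that changes within these limits could not be told from none. Within replicate numbers the sign was mixed, as for H2-Aa at -0.88, 0.52 and 0.18. As a description, 0 of 8 members passed the threshold in 4OHT+Fer1 against ctrl, where 0.0311% of all genes did.

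**Figure D3:**
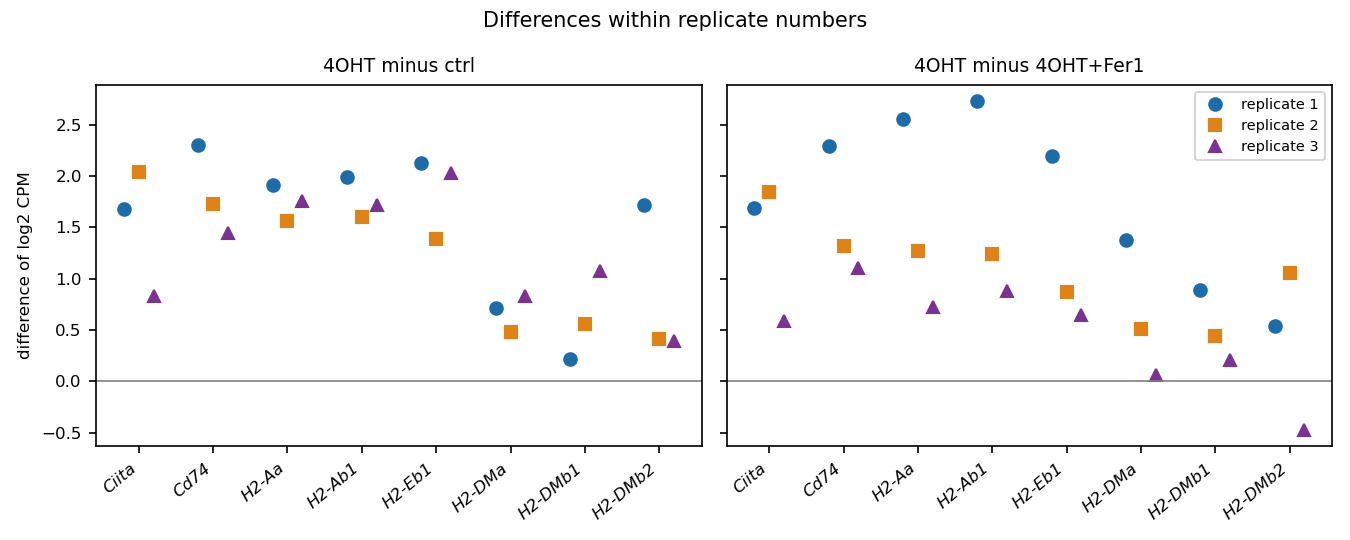
Differences of log2 CPM (y axis) between libraries of the same replicate number for the 8 class II genes, 4OHT minus ctrl on the left and 4OHT minus 4OHT+Fer1 on the right, with symbols for replicates 1 to 3. All differences on the left are above 0, and on the right those of replicate 3 are the lowest for every gene.

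The group means of the ferroptotic supernatant lay between ctrl and medium for all 8 members, which is a description since these values led to the choice of genes. In 4OHT against ctrl, 5 of 8 members passed the threshold as higher, where 0.482% of all genes did: Cd74 at a log2 fold change of 1.86, H2-Eb1 at 1.84, H2-Ab1 at 1.79, H2-Aa at 1.75 and Ciita at 1.56. Those that did not pass were H2-DMb2 at 0.91, H2-DMa at 0.67 and H2-DMb1 at 0.59. Without the replicate number in the model 0 passed, with replicate 1 or 2 left out 0, with replicate 3 left out 4, and in a fit of these 2 groups alone 0. Over all genes, in either direction, 192 passed in the main fit and 7 without the replicate number. With replicate 1, 2 or 3 left out 2, 0 and 249 genes passed, and in the 2 groups alone 0. Every 4OHT library was above every ctrl library for 6 members, a pattern held by 5.2% of all genes, and 4OHT was above ctrl within each replicate number for 8 members, against 15.4% of all genes.

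The distance from the rescued supernatant was smaller in replicate 3 than in the others. In 4OHT against 4OHT+Fer1, 3 of 8 members passed as higher, where 0.412% of all genes did: Cd74 at 1.59, H2-Ab1 at 1.54 and Ciita at 1.41. Without the replicate number 0 passed, and with replicate 1, 2 or 3 left out 0, 0 and 4. Over all genes, in either direction, 174 passed in the main fit and 20 without the replicate number. With replicate 1, 2 or 3 left out 0, 0 and 299 genes passed. Cd74 differed by 2.29, 1.32 and 1.10 log2 units in replicates 1, 2 and 3, H2-Aa by 2.55, 1.27 and 0.72, and Ciita by 1.69, 1.84 and 0.59. Within each replicate number 4OHT was above 4OHT+Fer1 for 7 members, against 15.1% of all genes, yet for 0 members was every 4OHT library above every 4OHT+Fer1 library, a pattern held by 4.4% of all genes.

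Against medium, 4 of 8 members passed the threshold as lower in 4OHT, where 2.34% of all genes did: H2-Eb1 at -1.78, H2-Aa at -1.70, H2-Ab1 at -1.60 and Cd74 at -1.42. Ciita stood at -0.90 and did not pass. In ctrl against medium the gap was wider, and 7 of 8 members passed the threshold as higher in medium, where 5.58% of all genes did. Both counts are descriptions, like those of the other comparisons with 4OHT or ctrl. Without the replicate number the calls over all genes, in either direction, fell from 548 to 104 and from 1396 to 523. For the members the counts were then 0 and 1. With replicate 1, 2 or 3 left out they were 0, 0 and 4 for 4OHT, and 5, 4 and 7 for ctrl. Both medium libraries lay above all 12 others for Cd74, H2-Aa and H2-Ab1, a pattern held by 6.51% of all genes, and above the 9 libraries of ctrl, Fer1 and 4OHT+Fer1 for these and Ciita and H2-Eb1, against 9.1% of all genes.

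Replicate 3 stood apart from replicates 1 and 2 in most members. In ctrl, Fer1 and 4OHT+Fer1, library 3 was above libraries 1 and 2 for 7 members, H2-DMb1 in ctrl being the exception, where 13.2% of all genes showed this. The ratio of library 3 to the mean of the other two was 3.66, 4.24 and 4.10 for Ciita in ctrl, Fer1 and 4OHT+Fer1, and 1.81 in 4OHT. For Cd74 it was 2.88, 3.23 and 3.18, and 1.85 in 4OHT. For H2-Ab1 it was 2.32, 3.65 and 4.36, and 2.18 in 4OHT. Summed over the 8 members, ctrl replicate 3 reached 520 CPM, below the lowest 4OHT library at 616 CPM, while replicate 3 of Fer1 reached 691 CPM and of 4OHT+Fer1 827 CPM, above it.

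The rest of the class II pathway, 36 genes listed by role of which 33 were tested, was counted in the same fit. In 4OHT against ctrl 0 of 33 were called by edgeR, where 1.49% of all genes were called, 4 had an unadjusted p under 0.05, where 10.8% of all genes did, and DESeq2 called 0. In 4OHT against 4OHT+Fer1 0 were called, where 1.35% of all genes were, 6 had an unadjusted p under 0.05, where 11.8% of all genes did, and DESeq2 called 1. These counts are near the shares of all genes. In 4OHT+Fer1 against Fer1 the numbers were 0, 0 and 0. Of the promoter-binding factors, Rfx5 (log2 fold change -0.02 in 4OHT against ctrl), Rfxap (-0.07), Rfxank (-0.20), Nfya (-0.02), Nfyb (-0.33), Nfyc (0.16) and Creb1 (0.03) were not called, Nfyb with a 95% interval of -0.65 to -0.02 and an adjusted p of 0.425. Nor were the abundant endosomal proteases Ctss, cathepsin S (0.28), Ctsb (0.01) and Ctsd (0.01).

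**Figure D4:**
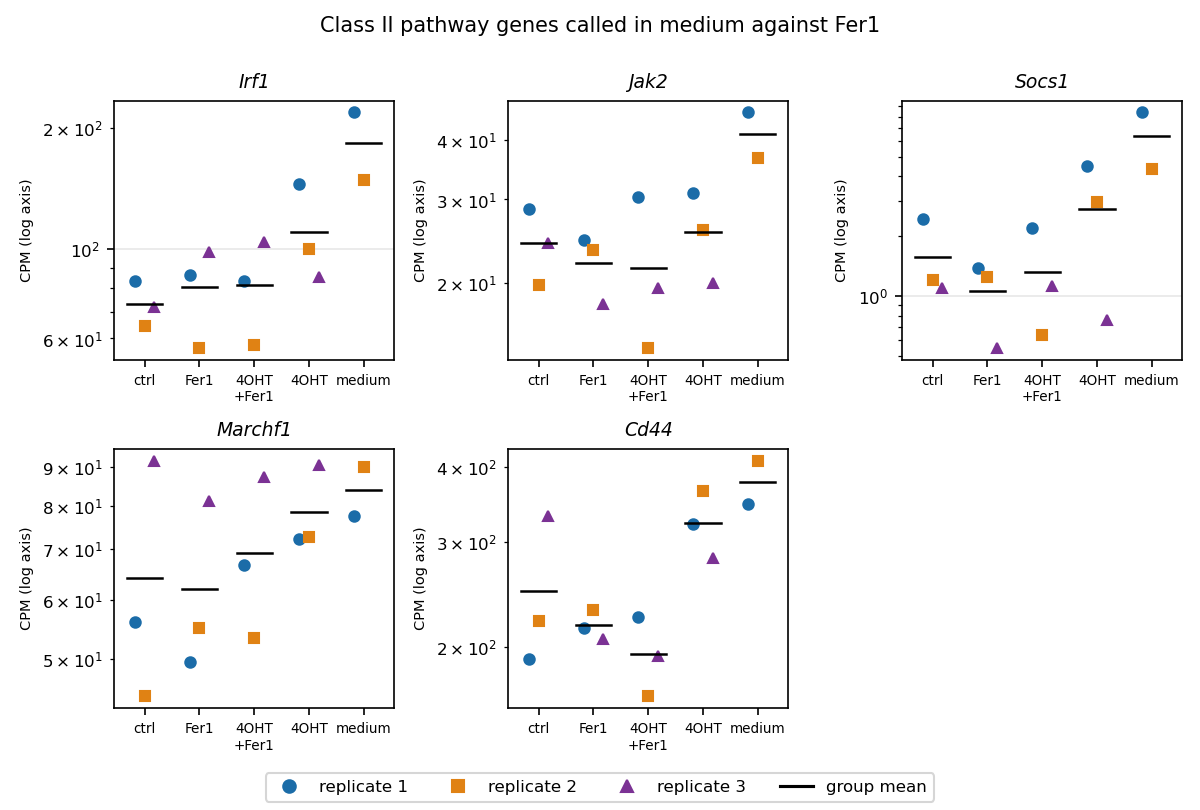
CPM (log axis, a scale of its own in each panel) of 5 class II pathway genes called in medium against Fer1, by library, with symbols for replicates 1 to 3 and a black line at the group mean. Both medium libraries of Irf1 and of Jak2 lie above the other 12, as in 6.51% of all genes. Within 4OHT Socs1 is lowest in replicate 3.

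In medium against Fer1, 6 of 33 were called higher, where 4.91% of all genes were, and 0 lower, where 5.16% of all genes were. Without the replicate number 1 was called, with replicate 1 or 2 left out 0, and in a fit of these 2 groups alone 20. Over all 12851 genes, in either direction, 1294 were called in the main fit, 523 without the replicate number and 3726 in the 2 groups alone. Of the genes listed for interferon-gamma signalling and myeloid factors, Irf1 was higher by a log2 fold change of 1.25 (SE 0.23, adjusted p = 0.00416). The kinase gene Jak2 was higher by 0.82 (SE 0.22, adjusted p = 0.0357) and Socs1, a feedback inhibitor of JAK kinases, by 2.24 (SE 0.47, adjusted p = 0.00942). Ifngr1, listed with them, overlapped between the groups, at 234 and 314 CPM in medium and 211, 236 and 284 CPM in Fer1. Irf1 had 219 and 149 CPM in medium and 86.4, 56.8 and 98.5 CPM in Fer1. Marchf1, a ubiquitin ligase that removes class II molecules from the surface, was higher by 0.67 (adjusted p = 0.0365), and Cd44, a co-receptor of CD74, by 0.82 (adjusted p = 0.0406). Though called, Marchf1 overlapped between the groups, at 77.6 and 90.2 CPM in medium and 49.6, 55.0 and 81.2 CPM in Fer1.

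Irf1 stood at 0.59 (SE 0.20, adjusted p = 0.251) and Socs1 at 0.73 (SE 0.43, adjusted p = 0.611) in 4OHT against ctrl. Within replicates 1, 2 and 3 the differences of log2 CPM were 0.81, 0.63 and 0.25 for Irf1. They were 0.84, 1.18 and -0.44 for Socs1 and 0.11, 0.38 and -0.28 for Jak2. The ratio of library 3 to the mean of the others in ctrl, Fer1, 4OHT+Fer1 and 4OHT was 0.976, 1.37, 1.48 and 0.695 for Irf1. For Socs1 it was 0.607, 0.417, 0.795 and 0.202, where Ciita had 3.66, 4.24, 4.10 and 1.81. Their part in the class II values was not tested.

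The genes outside the lists whose log2 CPM were most like the mean profile of the members over the 14 libraries were Tmem176a and Clec4a3 (Pearson's r = 0.98), Tmem176b and Prdm1 (0.97), Arl5a, Neurl3, N4bp1 and Clec4a1 (0.96), and Trf and Tmem37 (0.95). These values describe libraries that share groups and replicate numbers. Tmem176a, a membrane protein gene next to Tmem176b, had 24.3, 31.6 and 83.9 CPM in ctrl, 97.0, 119 and 156 CPM in 4OHT, and 240 and 193 CPM in medium. Like the members, it was high in replicate 3 of Fer1 and 4OHT+Fer1, at 165 and 216 CPM.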

How the data were processed

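RNA of 14 pBMDM libraries was sequenced with QuantSeq. Per the labels and the methods, the authors aligned reads with STAR 2.7.10a, quantified genes with Salmon 1.5.2 and deposited expected counts (estimated counts) per gene, not normalized. The labels' processing notes list GRCh38 and GRCm38, and the identifiers are those of mouse genes. The deposited table of the authors' own comparisons was not used. Positions are from GENCODE M21 (GRCm38), promoters from RefSeq.

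Expected counts were rounded (30109 values were not whole) and the planned count test was kept. Genes were filtered with filterByExpr (minimum count 10), scaled by TMM (factors 0.910 to 1.06) and fitted over all 14 libraries with group and replicate number as terms. The test was the quasi-likelihood F test of edgeR 4.0.16 in R 4.3.3. Genes were called at a Benjamini-Hochberg adjusted p under 0.05 over 12851 genes. The methods have mouse ID in the design, and that the replicate number is the mouse was assumed. Deviations from group means correlated at 0.00221 to 0.646 (median 0.247) for 26 pairs of the same number and at a median of -0.139 for 52 others. Otherwise p-values measure only the spread between these libraries. CPM use TMM-scaled library sizes, and differences of log2 CPM a prior count of 2.

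Members and lists were chosen with earlier results of these data known. Named were all members, pathway genes called in 4OHT against ctrl or medium against Fer1 (up to 8) plus up to 3 abundant uncalled ones, and the 10 genes most like the mean member profile, without predicted genes. The promoter-binding factors, H2-Ea, H2-Eb2, H2-Oa, H2-Ob and markers were named after their values were seen. The scripts were tested on simulated data. Alternatives were DESeq2 1.42.0, RLE factors, no filter, 2 groups only, a fold threshold, no replicate number and each replicate left out. Count limits cover counting error only. One called pathway gene is not reported here.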

Additional observations from a re-analysis of the deposited data

Results flagged for a closer look

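Nfyb, which encodes a subunit of the Y-box factor NF-Y, was lower in 4OHT than in ctrl in all 3 replicates (differences of log2 CPM of -0.50, -0.42 and -0.07) and higher in 4OHT+Fer1 than in Fer1 in all 3 (0.09, 0.09 and 0.22). The difference between both effects was -0.47 on the log2 scale (adjusted p = 0.787 over all genes, edgeR), which did not pass the correction. Nfyb was picked by a screen of the 8 members and the 33 tested pathway genes for such opposite signs. The share of all genes with this pattern was not counted, so nothing is read from it.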

How the results depend on the processing

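The numbers of members past the threshold rested on the replicate number in the model, those with 4OHT or ctrl being descriptions. Without the replicate block, these numbers fell from 5 to 0 in 4OHT against ctrl, from 3 to 0 in 4OHT against 4OHT+Fer1, from 4 to 0 in 4OHT against medium, from 7 to 1 in medium against ctrl, from 6 to 1 in medium against Fer1 and from 7 to 0 in medium against 4OHT+Fer1, and those of the pathway list in medium against Fer1 from 6 to 1. Over all genes the numbers fell without the block as well, from 192 to 7 in 4OHT against ctrl and from 1294 to 523 in medium against Fer1. The cause was not tested. In 4OHT against 4OHT+Fer1, DESeq2 and no filter gave 5 members each and the 2 groups alone 1, while the 2 groups alone gave 0 in 4OHT against ctrl. Over all genes these fits called 408, 285, 37 and 0. For the pathway list in medium against Fer1, the 2 groups alone gave 20 calls, where 3726 of all genes were called. A threshold of 1 on the log2 fold change gave 3 there, where 927 of all genes were called. DESeq2 gave 1 in 4OHT against 4OHT+Fer1, where 408 of all genes were called. When single replicates were left out, the numbers of members ran from 0 to 4 in 4OHT against ctrl, 4OHT+Fer1 and medium, the 0 coming without replicate 1 and without replicate 2, and from 4 (without replicate 2) to 7 in medium against ctrl, Fer1 and 4OHT+Fer1. Pathway calls ran from 0 to 1 in 4OHT against ctrl, from 0 to 2 in 4OHT against 4OHT+Fer1 and from 0 to 5 in medium against Fer1.

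The log2 fold changes of the 8 members kept their sign under each alternative in medium against Fer1 and 4OHT+Fer1 and in 4OHT against ctrl and 4OHT+Fer1. Between 4OHT+Fer1 and Fer1, where no member was called, signs turned for Ciita at -0.00 with DESeq2 and with RLE factors and at -0.01 without the filter and in the 2 groups alone, and for H2-Aa at -0.05 in the 2 groups alone. With each replicate left out, the values there ran from -0.09 to 0.05 for Ciita, from -0.23 to 0.31 for H2-Aa, from -0.00 to 0.44 for H2-Ab1, from -0.42 to 0.14 for H2-DMa, from -0.32 to 0.08 for H2-DMb1 and from -0.09 to 0.25 for H2-DMb2. H2-DMb2 gave no value in the fit of these 2 groups alone, where it did not pass the filter. Depth limits H2-DMb2 most.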

Other observations

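Library 3 also stood apart in genes other than the members, and these were picked after their values were seen. Fcgr1, the high-affinity IgG receptor, was lower in library 3 than the mean of libraries 1 and 2, at ratios of 0.315 in ctrl, 0.486 in Fer1, 0.580 in 4OHT+Fer1 and 0.310 in 4OHT. Itgax, the integrin chain CD11c, was higher, at ratios of 2.28, 3.32, 3.50 and 6.997.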
